A study of Mus musculus with 6 samples.

Results

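The mitochondrial genome transcripts of mouse thymocytes were taken from a table of RNA-seq counts as all rows whose gene symbol on the mouse genome build GRCm38 starts with mt-. They are 37 of the 55536 gene rows. Of these, 13 encode proteins (mRNA), 2 are ribosomal RNAs (rRNA) and 22 are transfer RNAs (tRNA). The rule used symbols only and no measured value. RNA came from thymocytes, the T cells that mature in the thymus, at steady state and with no treatment named. The libraries were labelled Il3ra-/-, lacking the alpha chain of the interleukin-3 receptor (labelled knockout), or Il3ra+/+ (wildtype), with 3 mice in each group. The labels and design text name no strain, age, form of the deletion or shared batch. Beyond the count of 3 mice per group nothing describes the replicates, so the p-values measure the spread between these samples.

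Mitochondria keep a small circular genome of their own. Both of its strands are transcribed into long precursors, and the tRNAs that lie between most of the other genes mark where these are cut. The proteins it encodes are core subunits of complexes I, III, IV and V of oxidative phosphorylation, which otherwise consist of proteins encoded in the nucleus. The rRNAs and tRNAs serve the mitochondrion's own translation.

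The genes lie close together and several overlap, so a read can belong to a pair of genes at once. The plus strand of the annotated genome carries 12 of the mRNAs, both rRNAs and 14 of the tRNAs, and the minus strand carries mt-Nd6 and the other 8 tRNAs. Along the plus strand mt-Atp8 and mt-Atp6 share 43 bases, and mt-Nd4l and mt-Nd4 share 7 bases. The ends of mt-Nd5 and mt-Nd6, on opposite strands, share 14 bases. Sequences below are given 5′ to 3′ from the GENCODE M21 transcripts of GRCm38. The shared stretches of the first 2 pairs are shown because their ratios are reported further on, with the shared bases in capitals and 20 flanking bases on each side. They lie on the plus strand at chrM:7907-7989 and chrM:10147-10193.
mt-Atp8/mt-Atp6: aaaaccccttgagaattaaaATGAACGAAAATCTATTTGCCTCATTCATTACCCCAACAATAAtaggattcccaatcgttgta
mt-Nd4l/mt-Nd4: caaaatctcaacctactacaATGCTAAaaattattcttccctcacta

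The nuclear genome holds copies of mitochondrial DNA, and these bear on every count given here. Chromosome 1 of GRCm38 carries 7 annotated pseudogenes that follow each other on the minus strand at chr1:24611535-24616197, a stretch of 4663 bases that copies mitochondrial sequence from the end of mt-Co1 to within mt-Nd4. The copies of mt-Co2 (Gm28661), mt-Atp6 (Gm10925), mt-Co3 (Gm28437) and mt-Nd4l (Gm10222) matched their genes without a mismatch over 681, 678, 783 and 294 aligned bases. The copy of mt-Nd4 (Gm28439) matched without a mismatch over 876 of its gene's 1378 bases. Copies of mt-Nd3 (Gm28438) and of the end of mt-Co1 (Gm29216) each had 1 mismatch, over 345 and 483 aligned bases. Counted from 1 at the 5′ end of the mitochondrial gene, these were T3C in mt-Nd3 and A1066T in mt-Co1. The sequences around both are shown because these bases are the only ones in the aligned stretches by which the copies can be told from the genes, with the differing base in capitals. They lie at chrM:9459-9501 and chr1:24613077-24613119 for mt-Nd3, and at chrM:6373-6433 and chr1:24616145-24616197 for mt-Co1, on the plus strand of M and the minus strand of chromosome 1. The first bases of Gm29216 precede the part aligned with mt-Co1.
mt-Nd3: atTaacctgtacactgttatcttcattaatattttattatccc
Gm28438: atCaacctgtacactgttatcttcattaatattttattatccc
mt-Co1: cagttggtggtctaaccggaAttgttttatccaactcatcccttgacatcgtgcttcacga
Gm29216: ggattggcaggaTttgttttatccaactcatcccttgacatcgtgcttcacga

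Library totals ran between 55747682 and 82684219 counts. The targeted gene did not check the labels: Il3ra had 481, 673 and 514 counts in labelled knockout libraries 1 to 3, against 465, 376 and 399 counts in wildtype libraries 1 to 3 (edgeR quasi-likelihood test, Benjamini-Hochberg adjusted p = 0.585). All directions between genotypes below therefore rest on the labels. Xist, transcribed from the inactive X chromosome, had 128236 counts in labelled knockout replicate 1 and 88078 counts in wildtype replicate 1. It had 8 to 57 counts in the other 4 libraries. Ddx3y, a gene of the Y chromosome, had 3 and 1 counts in these first replicates, against 6476 to 11226 counts in the other 4 libraries. The first replicate of each genotype thus stood apart, as female by both genes where the others were male, and each group mixed the sexes. All 10 thymocyte markers were detected, with a summed level of 10300 to 10876 CPM (counts scaled to a common library size) in labelled knockout libraries and 11610 to 12837 CPM in wildtype libraries, which did not overlap. Of the 10 markers, 2 were fitted higher and 8 lower in labelled knockout libraries. edgeR called 0 of them (lowest adjusted p = 0.235), and DESeq2, a further test, called 1, lower in labelled knockout libraries. These tests called 0.0910% and 4.54% of all genes. In CPM of single genes, 20.3% of all genes tested did not overlap. In bulk samples, fewer cells of a type and less RNA per cell cannot be told apart.

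The share of counts on mitochondrial transcripts overlapped between the genotypes. Together the 37 genes held 10.8%, 11.9% and 14.1% of the counts in labelled knockout libraries 1 to 3, against 12.4%, 9.55% and 12.0% in wildtype libraries 1 to 3. Labelled knockout replicate 3 was the highest and wildtype replicate 2 the lowest, and the groups overlapped. The means were 12.3% ± 1.65 in labelled knockout libraries and 11.3% ± 1.56 in wildtype libraries (SD, n = 3 each; two-sided exact permutation test, p = 0.6; the smallest p that 3 against 3 libraries can give is 0.1). Nearly all of this was mRNA, at 11.8% ± 1.59 in labelled knockout libraries and 10.9% ± 1.56 in wildtype libraries (SD, n = 3 each; exact permutation p = 0.6). The difference in the share of all 37 genes was 0.929 percentage points over all libraries, 0.0358 points without labelled knockout replicate 3 and 0.0351 points without wildtype replicate 2. The difference in mRNA share was 0.885 percentage points over all libraries, -0.0066 points without wildtype replicate 2 and 2.15 points without replicate 1 of each genotype.

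The libraries were made with a kit that selects polyadenylated RNA, so the shares of rRNA and tRNA do not give their abundance in the cell. The rRNAs held 0.456%, 0.459% and 0.564% of the counts in labelled knockout libraries, against 0.437%, 0.445% and 0.466% in wildtype libraries (exact permutation p = 0.3). Again labelled knockout replicate 3 was the highest, and the groups overlapped. The difference in rRNA share was 0.0436 percentage points over all libraries and 0.0081 points without that library. The tRNAs held 0.00208% ± 3.69e-05 in labelled knockout libraries and 0.00198% ± 0.000198 in wildtype libraries (SD, n = 3 each; exact permutation p = 0.5). Adjusted over the 4 shares compared, every p was 0.6.

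**Figure D1:**
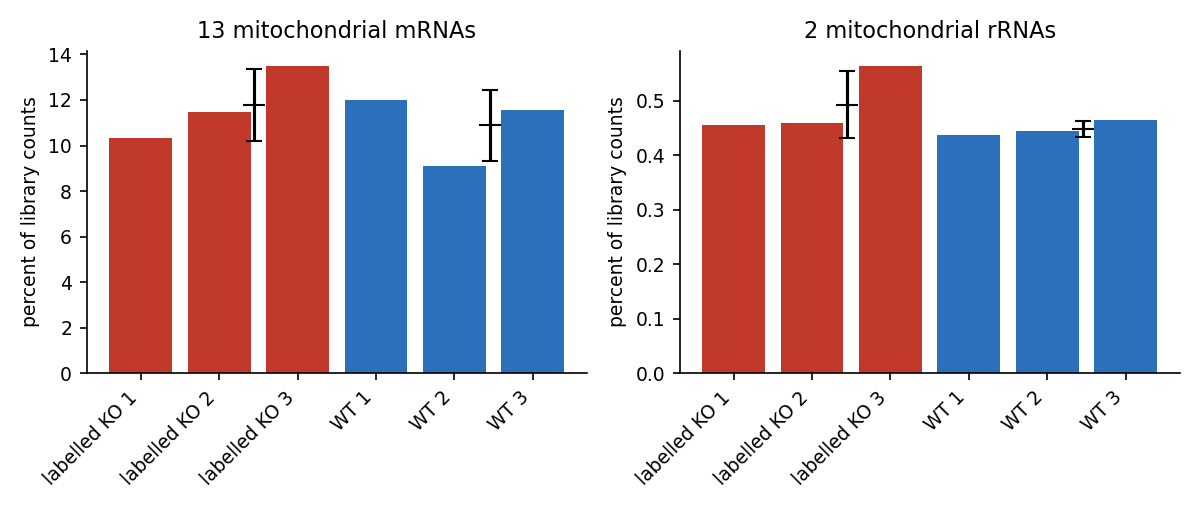
Percent of all counts of a library that fell on the 13 mitochondrial mRNAs (left) and the 2 mitochondrial rRNAs (right), 1 bar per library, with the labelled Il3ra-/- libraries in red and the wildtype (WT) libraries in blue. Black marks give the mean and SD of each group of 3; the groups overlap in both panels, and labelled knockout replicate 3 is the highest bar in each, at 13.5% for mRNA and 0.564% for rRNA.

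Other cell types that a thymus sample can hold did not have the same level in every library. Summed macrophage markers, all 8 of 8 detected, had 68.0, 111 and 222 CPM in labelled knockout libraries 1 to 3 and 119, 88.8 and 86.6 CPM in wildtype libraries. Summed neutrophil markers, all 5 of 5 detected, had 41.9, 20.7 and 227 CPM in labelled knockout libraries and 34.2, 56.8 and 17.4 CPM in wildtype libraries. Labelled knockout replicate 3, with the highest mitochondrial share, was also the highest in both sums. The same library was highest in the summed markers of dendritic cells (46.4 CPM) and B cells (53.6 CPM). It was narrowly highest in those of stroma (122 CPM, with 116 CPM in the lowest library). It was not the highest in those of erythroid cells and epithelium. The part of these cells in the mitochondrial share was not tested.

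No mitochondrial transcript passed the test between the genotypes. Of the 37 genes, 19 passed the filter on low counts and were tested, namely all 13 mRNAs, both rRNAs and 4 tRNAs. The edgeR quasi-likelihood test called 0 of them at an adjusted p under 0.05, against 17 of 18690 genes over the whole table (0.0910%), of which 3 were higher (0.0161%) and 14 lower (0.0749%) in labelled knockout libraries. DESeq2 called 0 of the 17 members to which it gave an adjusted p, against 602 of 13249 genes (4.54%). At an unadjusted p under 0.05, edgeR gave 1 of 19 (mt-Ts1) and DESeq2 0, where edgeR gave 2730 genes over the whole table (14.6%) and DESeq2 2771 of 18683 (14.8%). In CPM, scaled by the trimmed mean of M-values (TMM), the genotypes did not overlap for 1 of the 19, higher in labelled knockout libraries, against 3787 of 18690 genes (20.3%; 10.9% higher and 9.38% lower in labelled knockout libraries). A missed threshold does not show equal levels: the 95% intervals of the folds of the mRNAs ran as wide as 0.731 to 1.38 for mt-Nd3 and 0.880 to 1.58 for mt-Nd1.

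The mRNAs of complex I, the NADH dehydrogenase that feeds electrons into the chain, had 7 members. mt-Nd1 had 5441, 6885 and 8208 CPM in labelled knockout libraries 1 to 3, against 6629, 4309 and 6464 CPM in wildtype libraries 1 to 3 (fold 1.18, 95% interval 0.880 to 1.58; edgeR adjusted p = 0.600). mt-Nd2 had 3801, 4316 and 5223 CPM in labelled knockout libraries, against 4486, 3252 and 4824 CPM in wildtype libraries (fold 1.06). For both, labelled knockout replicate 3 was the highest library and wildtype replicate 2 the lowest, and the groups overlapped. mt-Nd3 had 699, 1005 and 1243 CPM in labelled knockout libraries, against 1137, 774 and 1024 CPM in wildtype libraries (log2 fold 0.0060). mt-Nd4 had 9412, 10257 and 12699 CPM in labelled knockout libraries, against 11427, 8403 and 11465 CPM in wildtype libraries (fold 1.03). The lowest library for mt-Nd3 was labelled knockout replicate 1, and for mt-Nd4 wildtype replicate 2.

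Its short neighbour mt-Nd4l, read from the same stretch of RNA as mt-Nd4, had 1072, 1143 and 1221 CPM in labelled knockout libraries, against 1062, 890 and 1083 CPM in wildtype libraries (fold 1.13). mt-Nd5, the longest of the 13 genes at 1824 bases, had 4301, 4757 and 5706 CPM in labelled knockout libraries, against 4837, 3165 and 4766 CPM in wildtype libraries (fold 1.16). For both the groups overlapped, with wildtype replicate 2 the lowest. mt-Nd6, the one mRNA of the minus strand, had 1333, 1313 and 1593 CPM in labelled knockout libraries, against 1299, 857 and 1371 CPM in wildtype libraries (fold 1.20, 95% interval 0.928 to 1.56; edgeR adjusted p = 0.501). Its fold was the highest of the 13 mRNAs, with a log2 fold of 0.27 over all libraries and 0.09 without wildtype replicate 2, and wildtype replicate 3 lay inside the labelled knockout range.

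mt-Cytb, the cytochrome b of complex III, had 11336, 11224 and 14702 CPM in labelled knockout libraries, against 12122, 8590 and 12004 CPM in wildtype libraries (fold 1.14; edgeR adjusted p = 0.644). Among the subunits of complex IV, the cytochrome c oxidase that hands electrons to oxygen, mt-Co1 had 27148, 32902 and 40021 CPM in labelled knockout libraries, against 35773, 26393 and 33398 CPM in wildtype libraries (fold 1.05). It had the highest count of all 55536 rows in each of the 6 libraries, with the groups overlapping. mt-Co2 had 12065, 12545 and 15668 CPM in labelled knockout libraries, against 13818, 9933 and 12956 CPM in wildtype libraries (fold 1.10). mt-Co3 had 9387, 10155 and 13633 CPM in labelled knockout libraries, against 11560, 8170 and 10305 CPM in wildtype libraries (fold 1.10). In each of these 4 the highest library was labelled knockout replicate 3 and the lowest was wildtype replicate 2.

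The ATP synthase, complex V, takes mt-Atp6 and mt-Atp8 from the mitochondrial genome. mt-Atp6 had 13828, 15218 and 19544 CPM in labelled knockout libraries, against 16802, 12049 and 16947 CPM in wildtype libraries (fold 1.06). mt-Atp8 had 1286, 1346 and 1117 CPM in labelled knockout libraries, against 975, 1028 and 1205 CPM in wildtype libraries (fold 1.17; unadjusted p = 0.0945, adjusted p = 0.433 by edgeR). Unlike the other 12 mRNAs, mt-Atp8 was not highest in labelled knockout replicate 3, and only wildtype replicate 3 lay above the lowest labelled knockout library.

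All 13 mRNAs were fitted higher in labelled knockout libraries, by a median log2 fold of 0.14 (from 0.0060 to 0.27), beside a median of 0.01 over all genes tested; edgeR adjusted p ran from 0.433 to 0.992. The nuclear subunits of the same respiratory complexes were mostly fitted higher too, 28 of 36 in complex I, 4 of 4 in complex II, 8 of 9 in complex III, 11 of 11 in complex IV and 15 of 15 in complex V, with median log2 folds of 0.08, 0.15, 0.11, 0.15 and 0.12 in this order. Of all genes tested, 51.2% were fitted higher in labelled knockout libraries. The summed CPM of the nuclear subunits overlapped between the genotypes in each complex, with labelled knockout replicate 3 the highest. Wildtype replicate 2 was the lowest in complexes I, II, IV and V. The sign and size over the 13 mitochondrial mRNAs changed with the libraries used. Without labelled knockout replicate 3 there were 7 fitted higher and 6 lower, with a median log2 fold of 0.0079. Without wildtype replicate 2 there were 8 higher and 5 lower, with a median of 0.02. All 13 were higher, with a median of 0.21, without labelled knockout replicate 1, of 0.22 without wildtype replicate 1 and of 0.30 without replicate 1 of each genotype, the libraries that stood apart by Xist. mt-Nd3 was also fitted lower with DESeq2, limma-voom and the size factors of DESeq2 in edgeR (log2 fold -0.0028, -0.017 and -0.0028).

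Neither of the rRNAs, of the small and the large subunit of the mitochondrial ribosome, passed the test. mt-Rnr1 had 1419, 1327 and 1637 CPM in labelled knockout libraries, against 1447, 1307 and 1461 CPM in wildtype libraries (fold 1.04). mt-Rnr2 had 3033, 3194 and 4243 CPM in labelled knockout libraries, against 2995, 2984 and 3286 CPM in wildtype libraries (fold 1.13). The groups overlapped for both, and the edgeR adjusted p was 0.863 for mt-Rnr1 and 0.600 for mt-Rnr2. For mt-Rnr2 the log2 fold was 0.18 over all libraries and 0.01 without labelled knockout replicate 3.

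**Figure D2:**
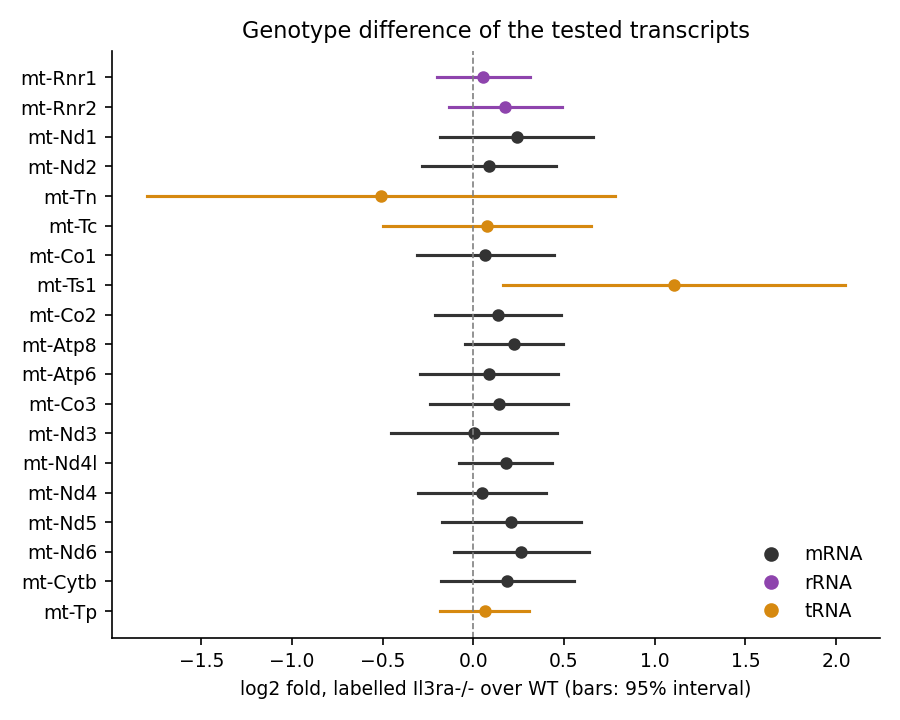
Log2 fold between genotypes, labelled Il3ra-/- over wildtype, of the 19 tested mitochondrial transcripts in the order of their genes, with points for the edgeR estimate and bars for its 95% interval. The interval of mt-Ts1 alone lies off 0 (fold 1.12 to 4.14), and all 13 mRNAs (dark) have estimates between 0.0060 and 0.27.

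The tRNA counts came almost wholly from the minus strand. The 14 tRNA genes of the plus strand had 8 counts in all 6 libraries together, and 9 of them had 0 in every library. A count of 0 allows up to 3 counts, or 0.0363 to 0.0538 CPM depending on the library, and covers counting error only. The 8 tRNA genes of the minus strand all had counts, 8071 in total or 99.9% of the tRNA counts. mt-Tp, the tRNA for proline, alone held 7242 of these counts, or 89.6% of all tRNA counts. Each plus-strand tRNA gene overlaps or lies at most 1 base from another gene of that strand. mt-Tp has no such neighbour on its strand. Nor have mt-Ts1 and mt-Tq, with far fewer counts. mt-Ts1 had 69 counts over the labelled knockout libraries and 27 over the wildtype libraries, and mt-Tq had 2 and 2. Whether reads that touch more than 1 gene were left out of the counts was not tested.

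The sequences of mt-Tp and mt-Tc, the tRNA for cysteine, are shown because these were the only tRNAs with a mean of at least 1 CPM, at chrM:15356-15422 and chrM:5192-5257 on the minus strand. The whole gene, with no part in capitals, is given for each.
mt-Tp: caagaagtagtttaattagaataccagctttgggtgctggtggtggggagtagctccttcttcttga
mt-Tc: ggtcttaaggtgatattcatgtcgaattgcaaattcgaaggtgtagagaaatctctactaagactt

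At 67 bases, mt-Tp had 1164, 1501 and 1313 counts in labelled knockout libraries, against 954, 1084 and 1226 counts in wildtype libraries. Scaled to library size this was 18.7 ± 0.695 CPM in labelled knockout libraries and 17.8 ± 1.60 CPM in wildtype libraries (SD, n = 3 each; fold 1.05, edgeR adjusted p = 0.831). In CPM its highest library was only 1.20 times its lowest, the smallest spread of the 19 tested transcripts. mt-Tc had 1.11, 1.74 and 1.78 CPM in labelled knockout libraries, against 1.44, 1.52 and 1.44 CPM in wildtype libraries (fold 1.05). The groups overlapped for both tRNAs.

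mt-Ts1, a tRNA for serine, was the tested transcript without overlap. It had 16, 26 and 27 counts in labelled knockout libraries, against 11, 8 and 8 counts in wildtype libraries. This was 0.264, 0.310 and 0.388 CPM in labelled knockout libraries, against 0.184, 0.138 and 0.123 CPM in wildtype libraries (fold 2.15, 95% interval 1.12 to 4.14; edgeR unadjusted p = 0.0253, adjusted p = 0.274). The result rested on few reads, and DESeq2 gave an unadjusted p of 0.0861. mt-Tn, the tRNA for asparagine, had 0.0330 to 0.216 CPM in labelled knockout libraries and 0.173 to 0.268 CPM in wildtype libraries (edgeR adjusted p = 0.727). mt-Te, which did not pass the filter, had 0.116 to 0.238 CPM in labelled knockout libraries and 0.0460 to 0.121 CPM in wildtype libraries, with overlap. Each of the remaining 17 tRNAs, none of which passed the filter, had at most 0.0519 CPM in any library.

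Per kilobase of gene, the mRNAs differed by 9.26 times between the first and the last. Over the 6 libraries mt-Atp6 came first with 23100 ± 3863 CPM per kilobase (SD, n = 6), followed by mt-Co1 with 21104 ± 3352 and mt-Co2 with 18758 ± 2782 CPM per kilobase. mt-Co3, mt-Cytb, mt-Nd4, mt-Nd1, mt-Atp8, mt-Nd2, mt-Nd4l and mt-Nd3 came next in that order, at 13438, 10195, 7700, 6607, 5684, 4159, 3631 and 2817 CPM per kilobase. mt-Nd5 with 2516 ± 457 and mt-Nd6 with 2494 ± 463 CPM per kilobase came last. Each gene's range over libraries overlapped that of its neighbour in this order. Within a library the order held better: 8 of the 12 neighbouring pairs stood in the same order in 6 of 6 libraries. The other 4 pairs were mt-Co1 over mt-Co2 and mt-Nd3 over mt-Nd5 (5 of 6 libraries each), and mt-Nd1 over mt-Atp8 and mt-Nd5 over mt-Nd6 (4 of 6 each). The rRNAs had 1501 ± 124 CPM per kilobase for mt-Rnr1 and 2079 ± 305 CPM per kilobase for mt-Rnr2, and both means lay below those of all 13 mRNAs. Because the kit selects polyadenylated RNA, the rRNA levels do not give abundance in the cell. How evenly the kit took the 13 mRNAs was not tested. Reads shared with the nuclear copies make the levels per kilobase uncertain by an unknown amount. Bases that genes share, such as the 43 of mt-Atp8 and mt-Atp6, add to this. How reads over shared bases were counted was not tested, so the distance between mt-Atp6 and mt-Atp8 in this order is uncertain too.

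**Figure D3:**
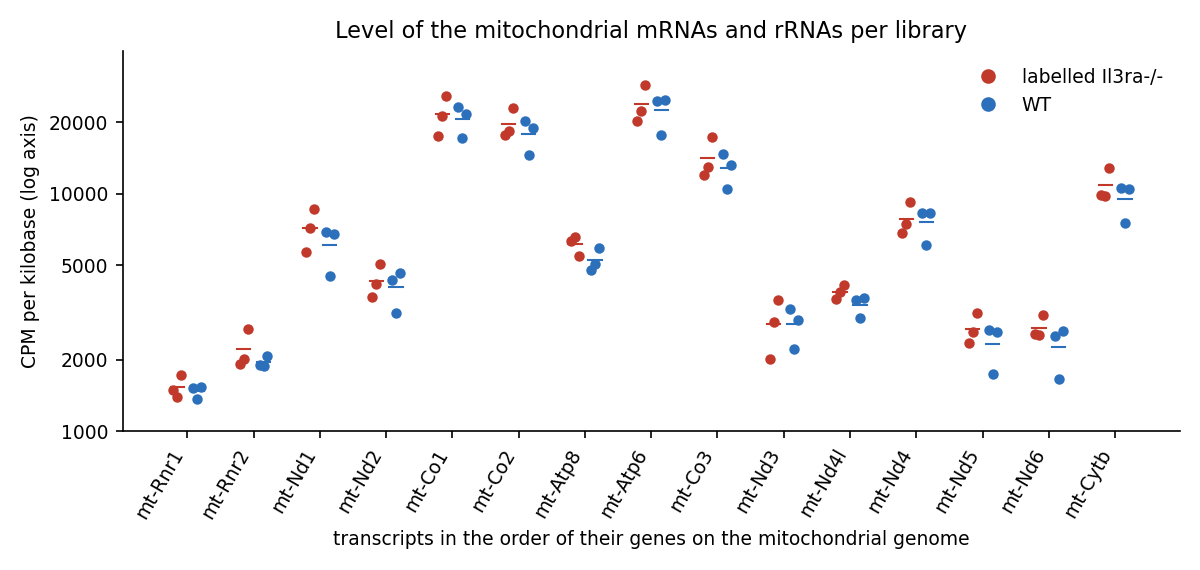
Level of each mitochondrial mRNA and rRNA in CPM per kilobase of gene (log axis), 1 point per library and a line for the mean of each group of 3, in the order of the genes on the mitochondrial genome. Points of labelled Il3ra-/- libraries (red) and wildtype libraries (blue) overlap for every transcript, while transcripts differ from 1501 for mt-Rnr1 to 23100 for mt-Atp6 in mean. The libraries selected polyadenylated RNA, so the rRNA points do not give abundance in the cell.

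Apart from mt-Atp8, the 13 mRNAs moved largely together across libraries. The highest library was 1.37 to 1.90 times the lowest in CPM. When each mRNA was expressed as percent of the sum of the 13, the ratio was 1.07 (mt-Atp6) to 1.60 (mt-Atp8). For mt-Atp8 this was more than its 1.38 in CPM. Each mRNA is part of the sum it was divided by, which by itself narrows the spread of the larger ones. mt-Co1 made up 28.1% ± 1.16 of the sum in labelled knockout libraries and 29.2% ± 0.857 in wildtype libraries, and mt-Atp6 13.7% ± 0.222 in labelled knockout libraries and 14.0% ± 0.367 in wildtype libraries (SD, n = 3 each). Both overlapped between the genotypes. 2 of the 13 did not, where 20.3% of all genes tested did not overlap in CPM. CPM is a different measure, and no such part was computed over percents of a sum.

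These 2 were subunits of complex I. mt-Nd4 held 9.31%, 9.07% and 9.03% of the mRNA sum in labelled knockout libraries, against 9.37%, 9.57% and 9.73% in wildtype libraries. mt-Nd5 held 4.25%, 4.21% and 4.06% in labelled knockout libraries, against 3.97%, 3.60% and 4.05% in wildtype libraries. Labelled knockout libraries were all lower for mt-Nd4 and all higher for mt-Nd5. For mt-Nd5 replicate 3 of the 2 genotypes lay close together, and the difference in means was 0.301 percentage points over all libraries and 0.167 points without wildtype replicate 2. For both, the exact permutation p was 0.1, the smallest possible, and 0.65 when adjusted over the 13 mRNAs.

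Ratios between mRNAs were compared for 9 fixed pairs or sums, and 1 of the 9 did not overlap. mt-Co1 over mt-Nd1 was 4.99, 4.78 and 4.88 in labelled knockout libraries, against 5.40, 6.12 and 5.17 in wildtype libraries (log2 difference -0.18; exact permutation p = 0.1, adjusted p = 0.675 over the ratios). The labelled knockout libraries lay close to each other and all below the wildtype libraries, and the log2 difference was -0.11 without wildtype replicate 2. The ratio of the genes last in the direction of the plus strand (mt-Nd5 and mt-Cytb) over the first (mt-Nd1 and mt-Nd2) was 1.55 ± 0.135 in labelled knockout libraries and 1.52 ± 0.0347 in wildtype libraries (SD, n = 3 each; exact permutation p = 0.9). mt-Nd6 over mt-Nd5, genes of opposite strands, was 0.288 ± 0.0187 in labelled knockout libraries and 0.276 ± 0.0104 in wildtype libraries (SD, n = 3 each; exact permutation p = 0.5). mt-Rnr1 over mt-Rnr2 was 0.423 ± 0.0416 in labelled knockout libraries and 0.455 ± 0.0243 in wildtype libraries (SD, n = 3 each; exact permutation p = 0.3). These 3 ratios overlapped between the genotypes.

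A pair of ratios between overlapping genes, whose shared bases are printed above, varied between libraries in like order. mt-Atp8 over mt-Atp6 was 0.0930, 0.0885 and 0.0571 in labelled knockout libraries, against 0.0580, 0.0854 and 0.0711 in wildtype libraries (exact permutation p = 0.6). mt-Nd4l over mt-Nd4 was 0.114, 0.111 and 0.0962 in labelled knockout libraries, against 0.0929, 0.106 and 0.0944 in wildtype libraries (exact permutation p = 0.2). In both, labelled knockout replicates 1 and 2 and wildtype replicate 2 were the 3 highest libraries, in this order, and the genotypes overlapped. The highest library was 1.63 times the lowest for mt-Atp8 over mt-Atp6 and 1.23 times for mt-Nd4l over mt-Nd4. These 3 libraries also had the lowest shares of counts on all mitochondrial genes, at 10.8%, 11.9% and 9.55% in the same order. The next lowest was wildtype replicate 3, at 12.0%. Whether the ratios and the share are linked was not tested.

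The remaining 3 ratios were mt-Co2 over mt-Co1 at 0.406 ± 0.0339 in labelled knockout libraries and 0.384 ± 0.00627 in wildtype libraries, mt-Co3 over mt-Atp6 at 0.681 ± 0.0153 in labelled knockout libraries and 0.658 ± 0.0436 in wildtype libraries, and mt-Nd5 over mt-Cytb at 0.397 ± 0.0235 in labelled knockout libraries and 0.388 ± 0.0171 in wildtype libraries (SD, n = 3 each). They overlapped between the genotypes, with an exact permutation p of 0.4, 0.6 and 0.6 in that order.

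**Figure D4:**
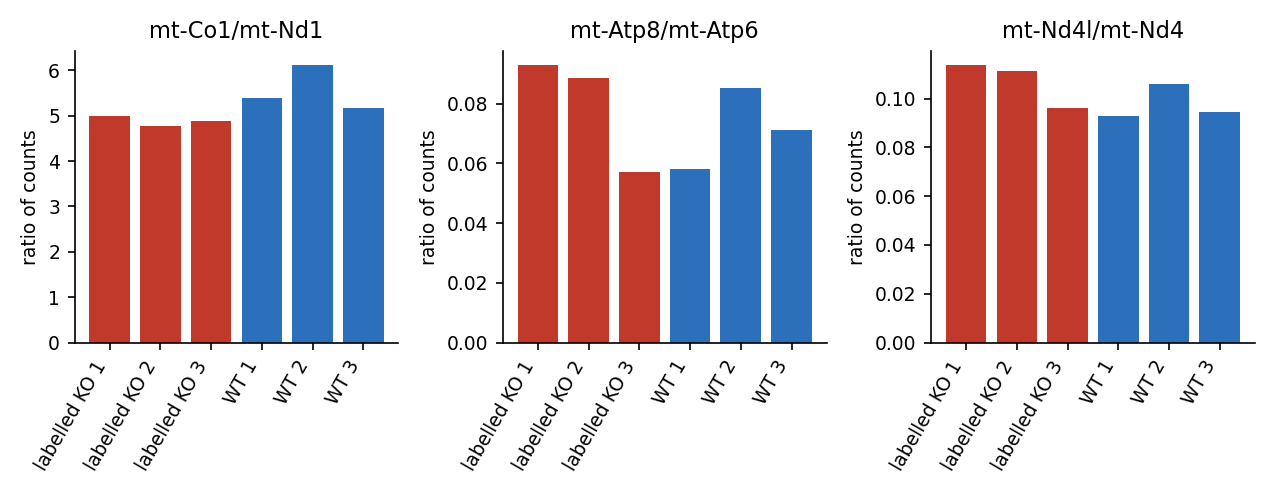
Ratio of counts of mt-Co1 over mt-Nd1 (left), mt-Atp8 over mt-Atp6 (middle) and mt-Nd4l over mt-Nd4 (right), 1 bar per library, with labelled Il3ra-/- libraries in red and wildtype (WT) libraries in blue. In the left panel the labelled knockout bars, 4.78 to 4.99, all lie below the wildtype bars, 5.17 to 6.12; in the other panels the genotypes overlap and the same 3 libraries are highest.

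Rows of the nuclear copies held a large part of the counts. The 7 copies on chromosome 1 held 5.82%, 6.34% and 7.52% of the library counts in labelled knockout libraries, against 6.77%, 5.17% and 6.50% in wildtype libraries. Further annotated copies, Gm13339, Gm13340 and Gm13341 on chromosome 2 and Gm4076 on chromosome 13, together held 0.315% to 0.456%. Mitochondrial genes and all 11 copies together made up 16.6%, 18.3% and 21.6% of the counts in labelled knockout libraries, against 19.2%, 14.7% and 18.5% in wildtype libraries, with overlap. The edgeR test called 0 of the 11 copies (adjusted p from 0.389 to 0.965) and 0 at an unadjusted p under 0.05.

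For the copies without a mismatch that span nearly a whole gene, counts came close to those of the gene. Gm28661 exceeded mt-Co2 by 0.0775% to 0.126% of the gene's counts, Gm28437 exceeded mt-Co3 by 0.191% to 0.390%, and Gm10222 exceeded mt-Nd4l by 0.373% to 0.634%, over the 6 libraries. In each of these pairs the copy was above its gene in every library, by these small margins. Reads of such a pair cannot be assigned to either place by sequence. Whether the same reads were counted in both rows or divided between them was not tested. If counted in both rows, they enter the library totals and the combined share of genes and copies more than once. The sources used here do not give how the counting treated reads with several places. Gm10925 exceeded mt-Atp6 by 33.7%, 31.7% and 28.7% in labelled knockout libraries, against 28.8%, 29.9% and 32.2% in wildtype libraries. No gene is annotated in the 233 bases between Gm10925 and Gm28661, where the mitochondrial genome has mt-Atp8, which overlaps mt-Atp6. The excess was 3.50 to 5.03 times the counts of mt-Atp8 itself. The levels of mt-Atp6 and mt-Atp8 are therefore uncertain, and whether reads over their shared bases were left out of both rows was not tested.

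The pair of mt-Nd3 and Gm28438, with its 1 mismatch T3C at position 9461 of M, was singled out after its values were seen, and no test is given. Gm28438 exceeded mt-Nd3 by 864, 1857 and 1208 counts in labelled knockout libraries, against 208, 107 and 101 counts in wildtype libraries. As percent of the counts of mt-Nd3 this was 2.04%, 2.20% and 1.40% in labelled knockout libraries, against 0.307%, 0.239% and 0.151% in wildtype libraries. All 3 labelled knockout libraries lay above all 3 wildtype libraries, with means of 1.88% ± 0.426 in labelled knockout libraries and 0.232% ± 0.0781 in wildtype libraries (SD, n = 3 each). In the pairs of mt-Co2, mt-Co3 and mt-Nd4l, which have no mismatch, the genotypes overlapped. In CPM, a different measure, 20.3% of all genes did not overlap, and no such part was computed over ratios. Of the 11 ratios of copy over gene, 2 did not overlap. The other one was Gm4076 over mt-Nd5, at 0.000492 to 0.000549 in labelled knockout libraries and 0.000373 to 0.000472 in wildtype libraries. Position 9461 is known to vary between inbred mouse strains, and the labels name no strain. Reads were not used here, so which base the reads of each library carry at position 9461 was not tested.

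**Figure D5:**
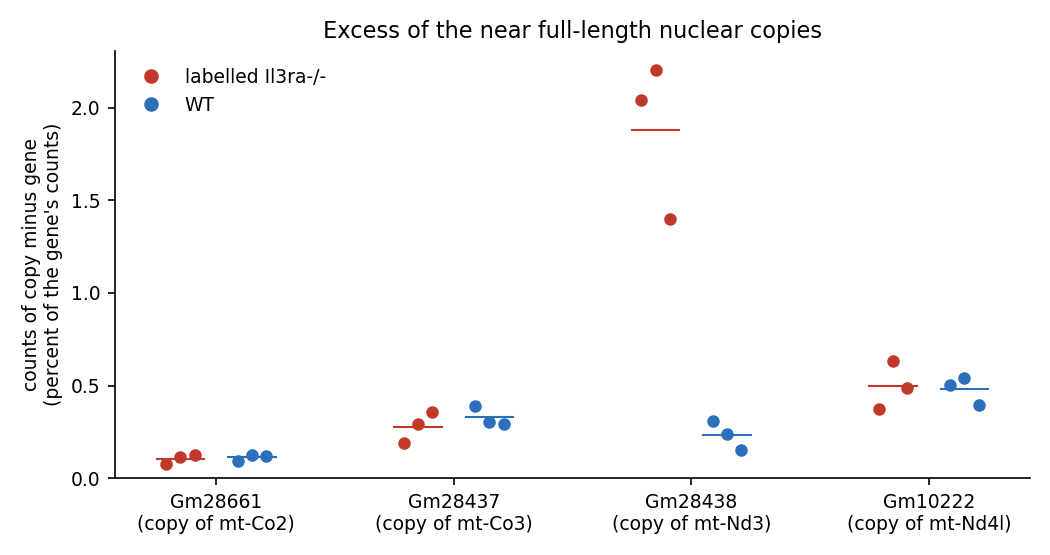
Counts of 4 nuclear copies on chromosome 1 minus the counts of the mitochondrial gene each copies, in percent of the gene's counts, 1 point per library with a line for the mean of each group of 3. For Gm28438 the labelled Il3ra-/- libraries (red) lie at 1.40% to 2.20% and the wildtype libraries (blue) at 0.151% to 0.307%; for the other 3 copies the groups overlap, at 0.634% or less.

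The mitochondrial mRNAs were set against the nuclear mRNAs of the same complex by the ratio of summed counts. For complex I this was 19.0 ± 1.97 in labelled knockout libraries and 18.2 ± 3.17 in wildtype libraries, and for complex III 18.8 ± 1.75 in labelled knockout libraries and 17.3 ± 2.80 in wildtype libraries (SD, n = 3 each). Complex IV had 60.4 ± 4.76 in labelled knockout libraries and 61.9 ± 5.04 in wildtype libraries, and complex V 6.32 ± 0.456 in labelled knockout libraries and 6.48 ± 0.719 in wildtype libraries (SD, n = 3 each). The genotypes overlapped for all 4 complexes, with an exact permutation p of 0.6 to 1.0 and an adjusted p of 1. edgeR called 0 of the nuclear subunits in all 5 complexes. At an unadjusted p under 0.05 it gave 3 of 36 in complex I, 1 of 4 in complex II, 0 of 9 in complex III, 2 of 11 in complex IV and 2 of 15 in complex V, against 14.6% of all genes.

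Genes of the nucleus that copy and transcribe mitochondrial DNA were also compared. edgeR called 0 of the 26 tested (0.0910% of all genes), and 8 of the 26 had an unadjusted p under 0.05 (14.6% of all genes), with a median log2 fold of 0.07 beside 0.01 over all genes. Polrmt, the mitochondrial RNA polymerase, had 41.9, 41.8 and 44.5 CPM in labelled knockout libraries, against 51.2, 54.5 and 49.1 CPM in wildtype libraries (log2 fold -0.27; edgeR adjusted p = 0.226). Polg, the catalytic subunit of the mitochondrial DNA polymerase, had 151, 151 and 135 CPM in labelled knockout libraries, against 191, 191 and 167 CPM in wildtype libraries (log2 fold -0.33; adjusted p = 0.186 by edgeR and 0.0469 by DESeq2). For both genes the labelled knockout libraries were all below the wildtype libraries. Mgme1, an exonuclease of mitochondrial DNA, had 15.5, 9.72 and 15.2 CPM in labelled knockout libraries, against 9.27, 7.86 and 8.38 CPM in wildtype libraries (log2 fold 0.66; adjusted p = 0.165 by edgeR and 0.0184 by DESeq2). Dna2, a nuclease and helicase, had 45.9 ± 8.85 CPM in labelled knockout libraries and 35.3 ± 1.61 CPM in wildtype libraries (SD, n = 3 each; edgeR adjusted p = 0.238). Both were higher in all labelled knockout libraries than in all wildtype libraries. The genes named here and in the next lists were picked for the smallest p of their list, which favours groups without overlap. Over all genes tested, 20.3% did not overlap.

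Of the genes that cut, modify and degrade mitochondrial RNA, 33 of 34 in the table were tested. edgeR called 0 (0.0910% of all genes) and gave 2 of the 33 an unadjusted p under 0.05, a smaller part than the 14.6% of all genes. Cdk5rap1, which modifies mitochondrial tRNAs, had 22.3, 11.7 and 24.4 CPM in labelled knockout libraries, against 11.3, 9.21 and 8.46 CPM in wildtype libraries (log2 fold 1.01; adjusted p = 0.159 by edgeR and 0.00237 by DESeq2). Labelled knockout replicate 2 lay just above the highest wildtype library. Fastkd2, an RNA-binding protein of mitochondria, had 13.1 ± 1.14 CPM in labelled knockout libraries and 10.6 ± 0.279 CPM in wildtype libraries (SD, n = 3 each; edgeR adjusted p = 0.285). The median log2 fold of the list was 0.02, beside 0.01 over all genes.

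In the list of mitochondrial stress response genes, 15 of 18 were tested. edgeR called 0 (0.0910% of all genes) and gave 4 of the 15 an unadjusted p under 0.05 (14.6% of all genes), with a median log2 fold of 0.11 beside 0.01 over all genes. Hspa9, the mitochondrial chaperone of protein import, had 164, 153 and 174 CPM in labelled knockout libraries, against 131, 121 and 142 CPM in wildtype libraries (log2 fold 0.32; edgeR adjusted p = 0.186). Mthfd2, an enzyme of mitochondrial folate metabolism, had 34.2, 28.6 and 33.9 CPM in labelled knockout libraries, against 25.1, 24.1 and 26.6 CPM in wildtype libraries (log2 fold 0.35; edgeR adjusted p = 0.197). Both were higher in every labelled knockout library than in every wildtype library. They too were picked for their small p, and 20.3% of all genes tested did not overlap. Psat1, of serine synthesis, had 62.9 ± 4.75 CPM in labelled knockout libraries and 49.5 ± 5.87 CPM in wildtype libraries, and Trib3, a pseudokinase, 0.448 ± 0.0590 CPM in labelled knockout libraries and 0.770 ± 0.249 CPM in wildtype libraries (SD, n = 3 each; edgeR adjusted p = 0.208 and 0.330).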

How the data were processed

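RNA was isolated with a column kit and libraries were made with a stranded kit that selects polyadenylated RNA, per the labels' protocols. Per the submitters' processing notes, STAR 2.5.4b, featureCounts and GRCm38 were used. The deposited values are raw counts per Ensembl gene, not normalised by the authors, per the file headers. The sources used here do not give the annotation release, the strand setting or what was done with reads that map to several places.

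All 55536 identifiers matched GENCODE M21. Members are the symbols that start with mt-. Genotypes were compared over the whole table with edgeR 4.0.16 (R 4.3.3; filterByExpr, TMM, robust quasi-likelihood fit), with p-values adjusted by Benjamini-Hochberg over 18690 genes, and with DESeq2 1.42.0 and limma 3.58.1 as alternatives. Shares, compositions and ratios used two-sided exact permutation tests over libraries. Copies were sought with blastn 2.17.0 among GENCODE transcripts (at least 100 aligned bases and 95% identity). On counts simulated for this comparison over 18690 genes, the edgeR fit called 45% of 100 genes changed 1.5-fold and 81% of 100 genes changed 2-fold, with 5 unchanged genes among its 131 calls. Simulated counts were drawn gene by gene, with no sex difference and no shift shared by the genes of a library. The mitochondrial mRNAs moved largely together across libraries, so these rates do not give the power for them. Named were all members, in nuclear lists up to 4 of smallest p, and copies of at least 1 CPM. Members and lists were chosen with earlier results of these data known. Macrophage, neutrophil and thymocyte marker sums are printed; erythroid, B cell, dendritic, epithelial and stromal sums overlapped between genotypes. CPM are counts per 1e+06 of the TMM-scaled library total. Library totals of 55747682 to 82684219 counts left counting error small for the mRNAs; replicate pairs differed beyond sampling noise.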

Additional observations from a re-analysis of the deposited data

How the results depend on the processing

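No mitochondrial transcript was called under any alternative run, and the lowest adjusted p of a member was 0.119, without replicate 1 of each genotype. Of 51 results, 24 kept their direction and side of the threshold throughout. For the shares, compositions, ratios and complexes the side was fixed in advance. Their permutation p cannot fall below 0.1 and the threshold was 0.05, so only their direction could change. No value that turned was called, and the cause of each turn was not tested, apart from the smaller number of libraries. The number of genes called over the whole table was 17. It was 602 with DESeq2, 840 with no filter on low counts, 10 with a mean of at least 1 CPM, 9 with the replicate block and 762 without replicate 1 of each genotype, and 8 (without wildtype replicate 2) to 29 (without labelled knockout replicate 1) with 1 library left out.

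Same-numbered libraries of both genotypes deviated with correlations of -0.0978, 0.0677 and -0.121, which show no pairing by number. The first replicates were still alike in Xist and Ddx3y. With the replicate block 9 genes and 0 members were called, and mt-Nd3 had a log2 fold of -0.012. mt-Nd3 also turned with DESeq2 (-0.0028), limma-voom (-0.017) and size factors in edgeR (-0.0028). Without mt-Co1 in the sum, mt-Co2 and mt-Co3 differed by -0.0053 and -0.0035 percentage points in composition. The log2 ratio of complex I was -0.0079 as a median over subunits.

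With libraries left out, the difference in share ran from -0.0066 to 2.15 percentage points for mRNA and from -2.7e-05 to 0.00019 for tRNA. The log2 folds ran from -0.034 to 0.13 (mt-Rnr1), -0.063 to 0.24 (mt-Nd2), -0.89 to 0.14 (mt-Tn), -0.038 to 0.26 (mt-Tc), -0.086 to 0.29 (mt-Co1), -0.072 to 0.26 (mt-Atp6), -0.035 to 0.36 (mt-Co3), -0.20 to 0.32 (mt-Nd3), -0.085 to 0.21 (mt-Nd4) and -0.031 to 0.10 (mt-Tp). In composition the differences in percentage points ran from -0.13 to 0.073 (mt-Nd2), -0.094 to 0.33 (mt-Co2), -0.10 to 0.23 (mt-Atp8), -0.072 to 0.31 (mt-Co3), -0.11 to 0.011 (mt-Nd3) and -0.026 to 0.10 (mt-Nd4l). The log2 ratios ran from -0.0040 to 0.088 (mt-Co3 over mt-Atp6), -0.13 to 0.36 (mt-Atp8 over mt-Atp6), -0.016 to 0.085 (mt-Nd5 over mt-Cytb), -0.0076 to 0.095 (mt-Nd6 over mt-Nd5) and -0.048 to 0.075 (the last over the first genes). Those of mitochondrial over nuclear counts ran from -0.075 to 0.18 (complex I), -0.10 to 0.042 (complex IV) and -0.11 to 0.047 (complex V).

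With counts of the copies on chromosome 1 left out, an alternative chosen after seeing the data, 17 genes and 0 members were called. Tests over 3 against 3 libraries cannot give a permutation p below 0.1, and the tRNAs other than mt-Tp and mt-Tc are limited by their few counts.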
